A study of Mus musculus with 6 samples.

Results

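Haematopoietic cytokine and growth factor receptors were represented by 9 genes, Tek, Csf1r, Ghr, Epor, Csf3r, Csf2ra, Il3ra, Csf2rb and Il1r1, measured in mouse haematopoietic stem cells (HSCs). They were named as a family by symbol, without Kit, Flt3 and Il7r, and all 9 were found among the 16312 genes of the deposited count table. The old group held 3 male mice aged 22 months and the young group 3 male mice aged 8 to 12 weeks. Both groups were B6 controls of a parabiosis study, and the series title gives the strain as C57BL/6N. HSCs were sorted from bone marrow by flow cytometry, and 1 RNA-seq library was made per sample. The sources used here give neither the surface markers of the sort nor whether the control mice were operated on. The libraries held 12494557 to 23583985 counts in old mice and 21386745 to 30931680 counts in young mice. All 12 listed HSC marker genes passed the filter on low counts, with summed levels of 4594 to 5118 CPM (counts per library, scaled to a common total) in old and 4305 to 4994 CPM in young libraries.

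Cytokine receptors pass signals about blood demand to haematopoietic cells. Class I receptors, the family of Epor, Ghr, Csf3r, Csf2ra, Il3ra and Csf2rb, have no kinase of their own and work through bound JAK kinases and STAT transcription factors. Tek and Csf1r are receptor tyrosine kinases, and Il1r1 signals through MyD88 to NF-kB. In bone marrow Tek, the angiopoietin receptor also called TIE2, is known as a receptor of quiescent HSCs, whereas Epor is best known in erythroid cells, Csf1r, Csf3r, Csf2ra and Csf2rb in myeloid cells and Ghr in the liver.

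Many class I receptors carry the amino acid signature WSXWS just outside the cell membrane, and the bases that encode it are shown because they mark the members of that family. They were read from the longest coding sequence of each gene in the GENCODE annotation of GRCm38, 5′ to 3′ on the coding strand. The capitals mark the 15 bases of the signature.
Epor: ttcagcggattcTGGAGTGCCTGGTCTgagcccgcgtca
Csf3r: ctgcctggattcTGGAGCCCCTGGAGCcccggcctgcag
Csf2rb: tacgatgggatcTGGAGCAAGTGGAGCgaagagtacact
Csf2rb2: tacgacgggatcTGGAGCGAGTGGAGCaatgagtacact
Il3ra: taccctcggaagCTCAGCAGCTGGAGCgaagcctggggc
Ghr: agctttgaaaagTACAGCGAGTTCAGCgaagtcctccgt
Epor, Csf3r, Csf2rb and its neighbour Csf2rb2 encode the exact signature. The stretches of Il3ra and Ghr match a looser pattern that keeps both serines and takes tryptophan or phenylalanine before the last one. This pattern had 2 matches in Ghr, of which the last is shown. Neither pattern was found in the longest coding sequence of Csf2ra.

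Ghr, the growth hormone receptor, was the 1 receptor gene that changed with age, and its level rose in HSCs of old mice. Of the 9 genes, 1 passed an adjusted p of 0.05 (edgeR), against 3.99% of all 14288 genes tested (570 genes). The background was 2.45% for genes higher in old mice (350) and 1.54% for genes lower in old mice (220), and with library size alone as the scaling 310 genes were higher and 298 lower. The median log2 fold change of the 9 genes, old over young, was 0.03, against −0.02 over all genes tested. The CPM ranges of old and young libraries were separate for 3 receptor genes, Ghr, Epor and Csf1r, against 22.4% of all genes tested. The 95% interval of the change lay within 2-fold in either direction for Tek, Csf3r and Il1r1. For the other 5 genes that did not pass, changes of 2-fold or more lay within the interval.

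**Figure D1:**
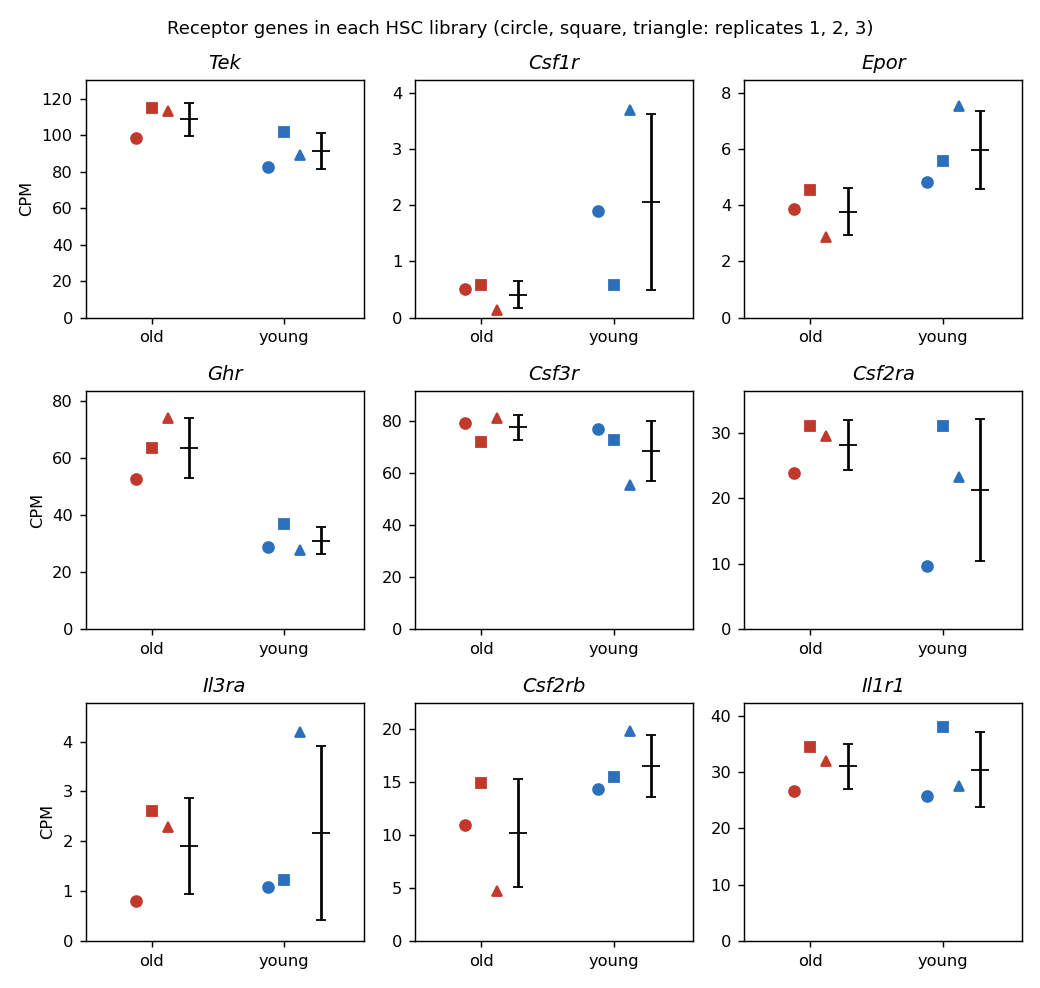
Level (CPM, linear axes from 0) of the 9 receptor genes in the 3 old and 3 young HSC libraries, with replicates 1, 2 and 3 as circle, square and triangle and the mean ± SD in black. Ghr separates the groups, with 52.8 to 73.9 CPM in old and 27.8 to 36.7 CPM in young libraries, whereas Tek, Csf3r, Csf2ra, Il3ra, Csf2rb and Il1r1 overlap.

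**Figure D2:**
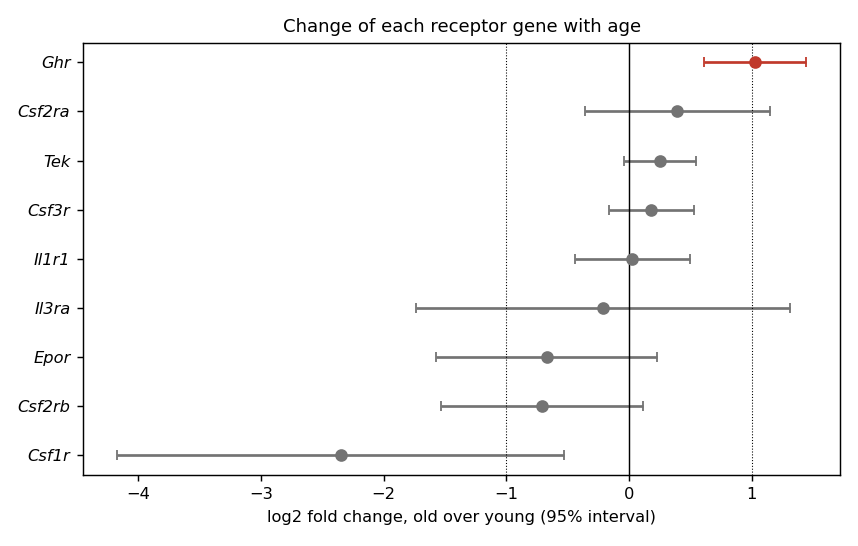
Log2 fold change, old over young, of each receptor gene (points) with its 95% interval (bars), and dotted lines at 2-fold. Ghr, in red, passed the test at 1.03, and the interval of Csf1r, from −4.17 to −0.53, is the widest of the 9.

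Levels were compared between genes per kilobase of annotated exons. Tek had 23.1 ± 1.90 CPM per kilobase in old and 19.4 ± 2.10 in young mice, and Csf3r had 21.4 ± 1.35 and 18.9 ± 3.16 in old and young mice (SD, n = 3). These were the highest levels of the 9, and the difference between Tek and Csf3r was within their spread in either age group. Csf2ra followed with 9.78 ± 1.32 CPM per kilobase in old and 7.42 ± 3.77 in young mice. Ghr came next in old mice (7.00 ± 1.17) but stood below Il1r1 in young mice (3.43 ± 0.540), and Il1r1 had 4.88 ± 0.622 and 4.78 ± 1.05 in old and young mice. Epor (1.89 ± 0.416 in old, 3.00 ± 0.698 in young) and Csf2rb (1.39 ± 0.701 in old, 2.27 ± 0.401 in young) lay below, within their spread of each other. Il3ra (0.639 ± 0.324 in old, 0.730 ± 0.591 in young) and Csf1r (0.0711 ± 0.0415 in old, 0.357 ± 0.271 in young) were the lowest, and in young mice their difference was within the spread. By mean CPM, Tek lay above 84.4% of all genes tested and Csf1r above 9.50%. With the longest transcript as the length, Ghr stood at 15.2 ± 2.53 CPM per kilobase in old and 7.45 ± 1.17 in young mice. Ghr then took the third place in old mice, above Csf2ra (12.3 ± 1.66), but their ranges of mean ± SD overlapped. By this length Ghr stood above Il1r1 in young mice as well (5.23 ± 1.14 for Il1r1), so their order in young mice depended on the length used.

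Ghr lies on chr15:3317760-3583492 (GRCm38, minus strand), and its receptor, with the bound kinase JAK2, activates STAT5. Ghr had 52.8, 63.6 and 73.9 CPM in old replicates 1, 2 and 3, against 28.7, 36.7 and 27.8 CPM in young replicates 1, 2 and 3. Every old library was above every young one. The level averaged 63.4 ± 10.6 CPM in old and 31.1 ± 4.89 CPM in young mice (SD, n = 3), a log2 fold change of 1.03 ± 0.19 (SE, adjusted p = 0.0101) or 2.04-fold, with a 95% interval from 1.53-fold to 2.72-fold. These values rest on 758 to 1613 counts per library in old and 606 to 936 in young mice. Without old replicate 3, the library with the highest level, the log2 fold change was 0.91 and Ghr did not pass (adjusted p = 0.0677). With any other library left out it passed, with log2 values from 0.95 to 1.17. In the authors' deposited table, which runs young over old, Ghr has −0.92 on the log2 scale (adjusted p = 0.00148). It is also the 1 receptor gene of the 9 past 0.05 in the authors' deposited table.

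Mouse Ghr is known for alternative first exons, and 2 RefSeq promoter windows of the gene (GRCm38.p6, minus strand) are shown because Ghr was the receptor gene that changed. Each window spans 300 bases around an annotated start, most of them before it. Capitals mark matches on either strand. The motif searched for EGR factors was GCGNGGGCG, and that for AP-1 was TGANTCA. For ETS factors the motif was AGGAAG and for GATA factors it was AGATAA. For RUNX factors the motif was TGTGGT and for STAT factors it was TTCNNNGAA.
Ghr window 1, chr15:3583303-3583602: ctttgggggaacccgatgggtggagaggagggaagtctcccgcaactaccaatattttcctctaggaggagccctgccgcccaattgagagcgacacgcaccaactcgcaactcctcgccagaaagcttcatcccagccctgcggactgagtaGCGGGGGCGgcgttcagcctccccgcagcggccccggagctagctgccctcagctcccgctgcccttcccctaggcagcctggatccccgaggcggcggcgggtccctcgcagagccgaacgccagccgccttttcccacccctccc
Ghr window 2, chr15:3581793-3582092: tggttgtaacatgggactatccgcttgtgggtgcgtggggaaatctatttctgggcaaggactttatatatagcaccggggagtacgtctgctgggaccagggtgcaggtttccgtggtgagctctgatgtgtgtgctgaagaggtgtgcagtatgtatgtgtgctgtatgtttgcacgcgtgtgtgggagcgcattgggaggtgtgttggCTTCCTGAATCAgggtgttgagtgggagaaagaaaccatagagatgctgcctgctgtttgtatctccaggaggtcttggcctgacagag
The first window held an EGR match and the second held an ETS match that overlaps an AP-1 match. Among 32851 promoter windows of the same length, 5.55% held an EGR, 7.81% an AP-1, 35.4% an ETS, 11.2% a GATA, 16.8% a RUNX and 8.30% a STAT match. Promoter windows were matched for 7 of the 9 receptor genes, in 9 windows. ETS matches were also found in the windows of Csf2ra, Csf3r and Il3ra, GATA matches in those of Tek and Epor, a RUNX match in that of Epor and an EGR match in 1 of the 2 windows of Il1r1. None of the 9 windows held a STAT match.

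Genes around growth hormone signalling were read from a list of 16, of which 11 were tested. Of these 1 fell and none rose (9.09%, against 3.99% of all genes tested), and the list median was 0.10 on the log2 scale. Igf1, the growth factor that growth hormone induces in liver, was the gene that fell, with 4.49 ± 1.49 CPM in old and 23.7 ± 7.83 CPM in young mice (SD, n = 3, adjusted p = 0.00272). Cish, a feedback inhibitor that STAT5 induces, had 29.4 to 40.0 CPM in old libraries, against 16.4 to 23.2 CPM in young libraries. Its groups did not overlap, but its log2 fold change of 0.86 ± 0.22 SE missed the threshold (adjusted p = 0.0539). With DESeq2 and without young replicate 3, 1 gene of the list was called higher. By the root mean square difference of log2 CPM over the 6 libraries, each gene centred on its mean, the protein-coding genes most like Ghr in pattern were Fam118b (0.0868), Casp12 (0.0906) and Art4 (0.0922). Casp12 encodes a caspase and Art4 an ADP-ribosyltransferase. Their likeness to Ghr fixes that they were higher in old mice, with log2 fold changes of 0.98 for Fam118b, 0.96 for Casp12 and 1.12 for Art4.

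Tek encodes the receptor tyrosine kinase of the angiopoietins and lies on chr4:94739289-94874976 (plus strand). It had 98.5, 115 and 113 CPM in old replicates 1, 2 and 3, against 82.5, 102 and 89.3 CPM in young replicates 1, 2 and 3. The groups overlapped, since young replicate 2 stood above old replicate 1. Its log2 fold change of 0.25 ± 0.14 SE did not pass (adjusted p = 0.397), and its 95% interval ran from −0.04 to 0.55. Tek transcripts were among the most even of the 9 between replicates, with a coefficient of variation of 8.21% in old and 10.9% in young mice. Of 7 tested endothelial markers, Kdr and Cldn5 rose (28.6%, against 2.45% of all genes tested) and 5 did not pass, and the list without Tek summed to 244 to 297 CPM in old and 164 to 237 CPM in young libraries. Their part in the level of Tek was not tested.

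Angpt1, the activating ligand of Tek, was transcribed in the same libraries. It had 1571, 1679 and 1563 CPM in old replicates 1 to 3, against 1390, 1362 and 1408 CPM in young replicates 1 to 3. The groups did not overlap, and the log2 fold change of 0.21 ± 0.08 SE did not pass (adjusted p = 0.214). The antagonist ligand Angpt2 had a log2 fold change of −0.55 (adjusted p = 0.424), and Tie1, the related receptor, had −0.13 (adjusted p = 0.781). Of 10 tested genes of angiopoietin and Tie signalling none passed, with a median log2 fold change of 0.10. Foxo1, a transcription factor restrained by this pathway, came closest, with a log2 fold change of 0.60 ± 0.15 SE (adjusted p = 0.0512), and 1 gene of the list was called higher with library size alone, with DESeq2, with limma-voom and without young replicate 1.

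Csf1r encodes the receptor of macrophage colony-stimulating factor and lies on chr18:61100598-61132149 (plus strand). It was at the edge of detection, with 12, 7 and 3 counts in old replicates 1, 2 and 3, against 40, 15 and 121 counts in young replicates 1, 2 and 3. As CPM these were 0.506, 0.587 and 0.137 in old and 1.90, 0.588 and 3.70 in young libraries. The groups did not overlap, but young replicate 2 was within 1 percent of old replicate 2. Its log2 fold change of −2.35 ± 0.83 SE did not pass (adjusted p = 0.164), and its 95% interval ran from −4.17 to −0.53. Without young replicate 3, the library with the highest level, the log2 fold change was −1.61. In bulk libraries, fewer cells of a type and less RNA per cell cannot be told apart.

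The 3′ end of Csf1r overlaps Hmgxb3 on the opposite strand, and 14.3% of the distinct 50-base words of Csf1r transcripts also occurred in Hmgxb3 transcripts. Hmgxb3 had 28.5 ± 0.531 CPM in old and 37.3 ± 3.97 CPM in young mice (SD, n = 3), far above Csf1r. The sources used here do not say whether the counting used strand, so the small counts of Csf1r are uncertain. Of 12 tested monocyte and macrophage markers without Csf1r, 7 fell (58.3%, against 1.54% of all genes tested) and none rose. With no filter on low counts 6 of 16 fell. Without old replicate 3 the number that fell was 3, and without old replicate 1 it was 4. Adgre1, Cd5l, Fcna, C1qb and Timd4 had no count in any old library. Of these, all but Timd4 were called, and they passed the filter through the young libraries alone. Such genes can only fall, so the share that fell is not comparable with that of all genes tested. The list summed to 181 to 208 CPM in old and 179 to 214 CPM in young libraries, mostly from Lyz2. Of the young libraries, replicate 2 had the highest Adgre1 (2.16 CPM) and Mrc1 (19.6 CPM). The highest C1qc (3.65 CPM) was in young replicate 1 and the highest Vcam1 (11.9 CPM) in young replicate 3. The part of macrophage transcripts in the level of Csf1r was not tested.

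Epor, the erythropoietin receptor, lies on chr9:21958897-21963506 (minus strand). It had 3.88, 4.53 and 2.89 CPM in old replicates 1, 2 and 3, against 4.84, 5.57 and 7.52 CPM in young replicates 1, 2 and 3. Every old library was below every young one, with 54 to 92 counts in old and 102 to 246 counts in young libraries. Epor did not pass, with a log2 fold change of −0.67 ± 0.41 SE (adjusted p = 0.474), and its 95% interval ran from −1.57 to 0.23. Of 12 tested erythroid markers without Epor, 4 fell (33.3%, against 1.54% of all genes tested) and none rose. The number that fell was 2 without any 1 old library or without young replicate 1, and 0 with limma-voom. The erythroid list summed to 792 to 959 CPM in old and 862 to 1339 CPM in young libraries, mostly from Car2. Car2 had 698 to 870 CPM in old and 734 to 910 CPM in young libraries, so the sums say little about the other markers. The median log2 fold change of the tested erythroid markers was −1.42. Young replicate 1 had the highest sum, 1339 CPM, of which Car2 made up 910 CPM. The part of erythroid transcripts in the level of Epor was not tested.

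The mouse Epor promoter is known to hold a site for the erythroid factor GATA1. The RefSeq window (GRCm38.p6, minus strand) is shown with its GATA and RUNX matches in capitals, both found on the reverse strand of the window.
Epor window, chr9:21963527-21963826: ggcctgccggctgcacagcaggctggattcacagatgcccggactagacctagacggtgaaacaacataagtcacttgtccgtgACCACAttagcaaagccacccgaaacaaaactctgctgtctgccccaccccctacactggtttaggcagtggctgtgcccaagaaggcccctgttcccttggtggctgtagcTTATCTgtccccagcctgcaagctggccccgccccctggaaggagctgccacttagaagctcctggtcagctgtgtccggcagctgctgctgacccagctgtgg
Gata1 itself stood at 0.886, 0.0839 and 2.20 CPM in old replicates 1 to 3, against 7.68, 2.31 and 4.86 CPM in young replicates 1 to 3. Its groups did not overlap, and its log2 fold change of −2.18 ± 0.81 SE did not pass (adjusted p = 0.189).

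Csf3r, the receptor of granulocyte colony-stimulating factor, lies on chr4:126024550-126044440 (plus strand). It had 79.1, 71.9 and 81.2 CPM in old replicates 1, 2 and 3, against 76.9, 72.7 and 55.4 CPM in young replicates 1, 2 and 3. The groups overlapped, and young replicate 3 stood below the other 5 libraries. Csf3r did not pass, with a log2 fold change of 0.18 ± 0.16 SE (adjusted p = 0.643), and its 95% interval ran from −0.16 to 0.53. Neutrophil markers differed between the libraries, with a sum of 19.9 to 23.5 CPM in old libraries, against 257, 27.0 and 64.8 CPM in young replicates 1, 2 and 3. Of 6 tested neutrophil markers 4 fell (66.7%, against 1.54% of all genes tested) and none rose. The number that fell was 0 with limma-voom or without old replicate 1, and with no filter on low counts 3 of 11 fell. The part of neutrophil transcripts in the level of Csf3r was not tested. Of the distinct 50-base words of Csf3r transcripts, 10.7% occurred in transcripts of other genes, most of them in a processed pseudogene.

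The receptors of granulocyte-macrophage colony-stimulating factor and interleukin 3 pair an own alpha chain, Csf2ra or Il3ra, with a common beta chain, Csf2rb. Mice carry an additional beta chain gene, Csf2rb2, which serves interleukin 3 alone. Csf2rb (chr15:78325752-78353847, plus strand) had 10.9, 14.8 and 4.72 CPM in old replicates 1, 2 and 3, against 14.3, 15.5 and 19.8 CPM in young replicates 1, 2 and 3. Old replicate 2 lay among the young libraries and old replicate 3 far below the other 5. Csf2rb did not pass, with a log2 fold change of −0.71 ± 0.38 SE (adjusted p = 0.390), with a 95% interval from −1.54 to 0.11. It was −0.35 without old replicate 3 and −1.08 without old replicate 2. Csf2rb2 had 9.62, 20.6 and 17.1 CPM in old replicates 1 to 3, against 9.20, 18.9 and 9.17 CPM in young replicates 1 to 3, a log2 fold change of 0.34 (adjusted p = 0.728).

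The coding sequences of Csf2rb and Csf2rb2 are identical at 95.4% of 2626 aligned bases, and 12.3% of the distinct 50-base words of Csf2rb transcripts also occurred in Csf2rb2. Reads of the deposited libraries were 50 bases long, so the split of counts between the pair is uncertain. The 60-base stretch with the most differences is shown, at bases 304 to 363 of the Csf2rb and 307 to 366 of the Csf2rb2 coding sequence, with the 13 differing bases in capitals.
Csf2rb: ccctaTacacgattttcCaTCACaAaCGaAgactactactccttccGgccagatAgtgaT
Csf2rb2: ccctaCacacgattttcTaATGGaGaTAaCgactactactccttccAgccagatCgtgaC
The sum of the pair was 20.5, 35.4 and 21.8 CPM in old replicates 1 to 3, against 23.5, 34.3 and 29.0 CPM in young replicates 1 to 3. With the counts summed, the log2 fold change was −0.17 ± 0.25 SE (adjusted p = 0.816), against −0.71 for Csf2rb alone. Csf2rb made up 53.1%, 41.9% and 21.6% of the pair in old replicates 1 to 3, against 60.8%, 45.03% and 68.4% in young replicates 1 to 3. Its share was lowest in old replicate 3, with a Wilson 95% interval from 18.2% to 25.6% that covers counting error only.

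Csf2ra (chr19:61223957-61228429, minus strand) had 23.8, 31.03 and 29.4 CPM in old replicates 1, 2 and 3, against 9.62, 31.02 and 23.3 CPM in young replicates 1, 2 and 3. The groups overlapped, and young replicate 1 stood far below the other 5 libraries. Csf2ra did not pass, with a log2 fold change of 0.40 ± 0.35 SE (adjusted p = 0.645), with a 95% interval from −0.36 to 1.15, and it was 0.05 without young replicate 1 and 0.77 without young replicate 2. Il3ra (chr14:14346275-14356011, plus strand) had 0.801, 2.60 and 2.29 CPM in old replicates 1, 2 and 3, against 1.09, 1.22 and 4.19 CPM in young replicates 1, 2 and 3. It rested on 19 to 50 counts per library in old and 23 to 137 in young mice, and young replicate 3 was 3.84 times as high as young replicate 1. Il3ra did not pass, with a log2 fold change of −0.21 ± 0.70 SE (adjusted p = 0.923), and its 95% interval from −1.74 to 1.32 held changes of 2-fold in either direction. In the authors' deposited table, which runs young over old, Il3ra has −0.28 on the log2 scale, the opposite direction. For the other 8 receptor genes the direction in the authors' deposited table matched the counts.

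The balance of alpha and beta chains was read as the log2 ratio of their CPM within each library, which is compared between age groups only. The ratio of Csf2ra to Csf2rb was 1.12, 1.06 and 2.62 in old replicates 1 to 3, against −0.56, 1.00 and 0.23 in young replicates 1 to 3. Every old library was above every young one, with a difference of 1.38 (exact two-sided permutation test over 20 arrangements, p = 0.1, the smallest p that this design allows). Without old replicate 3 the difference was 0.87. With Csf2rb and Csf2rb2 summed as the beta chain it was 0.73 and the groups overlapped (exact permutation p = 0.2). The ratio of Il3ra to Csf2rb was −3.63, −2.47 and −1.01 in old and −3.61, −3.58 and −2.22 in young replicates 1 to 3, a difference of 0.76 (exact permutation p = 0.7). Without old replicate 3 this difference was 0.084, and with the beta chains summed it was 0.12.

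**Figure D3:**
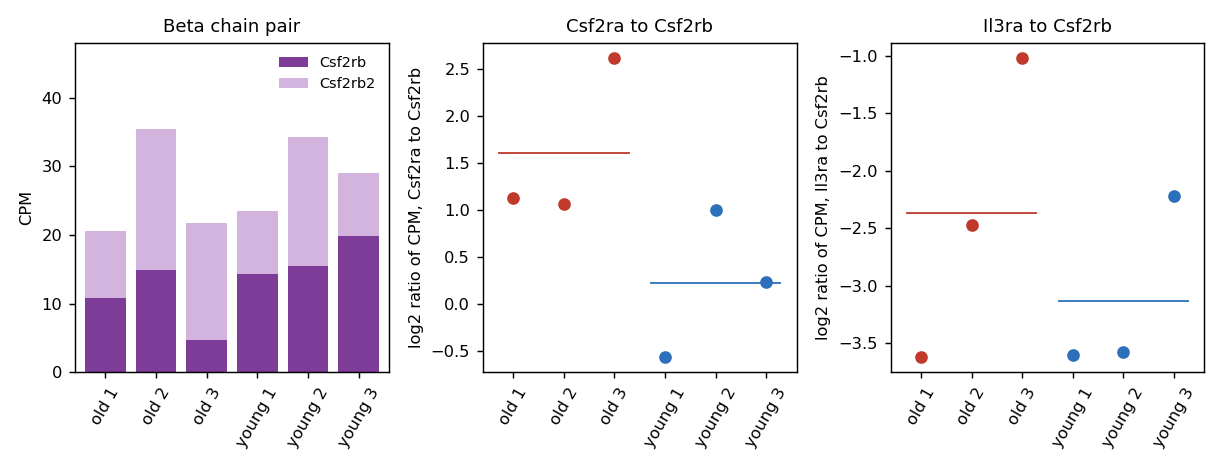
Left, CPM of Csf2rb and Csf2rb2 stacked in each library. Middle and right, log2 ratio of the CPM of Csf2ra and of Il3ra to Csf2rb per library (old in red, young in blue, lines at the group means). The Csf2ra ratio is 1.06 or more in the old libraries and 1.00 or less in the young ones, and the Il3ra ratios overlap.

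Il1r1, the signalling receptor of interleukin 1, lies on chr1:40225080-40317257 (plus strand). It had 26.7, 34.4 and 32.0 CPM in old replicates 1, 2 and 3, against 25.7, 38.0 and 27.5 CPM in young replicates 1, 2 and 3. The old values lay within the range of the young ones. The log2 fold change of 0.03 ± 0.21 SE did not pass (adjusted p = 0.973), and its 95% interval from −0.44 to 0.50 held changes of up to 1.41-fold upward. Of 22 tested genes of interleukin 1 signalling none passed (edgeR), the list median was −0.02 on the log2 scale, and 1 was called lower with DESeq2. The members with the smallest p were the receptor-associated kinases Irak2 (log2 fold change −0.96, adjusted p = 0.101), Irak4 (0.50, adjusted p = 0.171) and Irak3 (0.33, adjusted p = 0.269), and the NF-kB pathway kinase Ikbkb (−0.43, adjusted p = 0.293).

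The replicates were not alike in their receptor transcripts. Young replicate 3, the deepest library, had the highest value of all 6 libraries for 4 of the 9 genes, Epor, Csf1r, Csf2rb and Il3ra, and the lowest for Csf3r and Ghr. The coefficient of variation in young mice was 10.9% for Tek, 15.7% for Ghr and 16.7% for Csf3r, but 50.8% for Csf2ra, 75.8% for Csf1r and 81.0% for Il3ra. In old mice it was 6.30% for Csf3r and 8.21% for Tek, but 50.3% for Csf2rb, 50.7% for Il3ra and 58.4% for Csf1r.

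Related receptors and partner chains were read from a list of 45 genes, of which 41 were tested. Of these 1 rose and 3 fell (9.76%, against 3.99% of all genes tested), with a median log2 fold change of 0.03. Osmr, the oncostatin M receptor, rose with 43.03 ± 4.57 CPM in old and 3.19 ± 1.48 CPM in young mice (SD, n = 3, adjusted p = 6.38e-05). Flt3, the receptor of early lymphoid and multipotent progenitors, fell with 11.9 ± 1.84 CPM in old and 37.5 ± 4.31 CPM in young mice (adjusted p = 0.00136). Il12rb2, a chain of the interleukin 12 receptor, and Axl, a receptor tyrosine kinase, fell with log2 fold changes of −1.76 and −1.37 (adjusted p = 0.0295 and 0.0421). Axl lost its call in every fit that left out 1 library except that without young replicate 2, and Il12rb2 passed in 2 of these 6 fits. Flt3 and Osmr passed in all 6, and 1 gene of the list fell without old replicate 1, old replicate 3 or young replicate 3. The stem cell factor receptor Kit, named for its place in HSC biology, had 829 to 918 CPM in old and 826 to 930 CPM in young libraries, and its log2 fold change of −0.01 did not pass (adjusted p = 0.977).

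Downstream of the receptors, 1 of 27 tested JAK-STAT and proximal signal transducers rose and none fell (3.70%), and the list median was 0.10 on the log2 scale. Stat3, the transcription factor of gp130 and G-CSF receptors, rose with 278 ± 22.3 CPM in old and 192 ± 21.2 CPM in young mice (SD, n = 3, adjusted p = 0.0289). It passed in 1 of 6 fits with a library left out, that without young replicate 2, and its adjusted p reached 0.163 without old replicate 3. Of 23 tested negative regulators 1 rose and none fell (4.35%, near the 3.99% of all genes tested), with a median of 0.03. Socs3, a feedback inhibitor of gp130 and G-CSF receptors, rose with 28.5, 32.8 and 27.5 CPM in old replicates 1 to 3, against 1.85, 2.24 and 1.59 CPM in young replicates 1 to 3.

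Of 18 listed STAT5 target genes, all tested, 4 rose and 1 fell (27.8%, against 3.99% of all genes tested), while the median log2 fold change of the list was −0.04. The survival gene Mcl1 had 472 ± 44.2 CPM in old and 228 ± 15.7 CPM in young mice (SD, n = 3, adjusted p = 0.000341). The serine/threonine kinase gene Pim1 had 100 ± 2.82 CPM in old and 44.9 ± 1.88 CPM in young mice (adjusted p = 0.000555). Pim2 and Socs3 also rose and Igf1 fell, and these 5 calls were made in all 6 fits that left out 1 library. Socs2 and Ccnd2, also STAT5 targets, did not pass and had log2 fold changes of −0.23 and −0.11. Most of the listed targets are also induced by other factors. The list was chosen with earlier results of these data known, so its share of called genes is no test of STAT5 activity. Socs3 stands in 2 of the lists, as does Igf1. Ligands of the receptors were tested for 3 genes, Angpt1, Angpt2 and Csf1, and none passed.

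**Figure D4:**
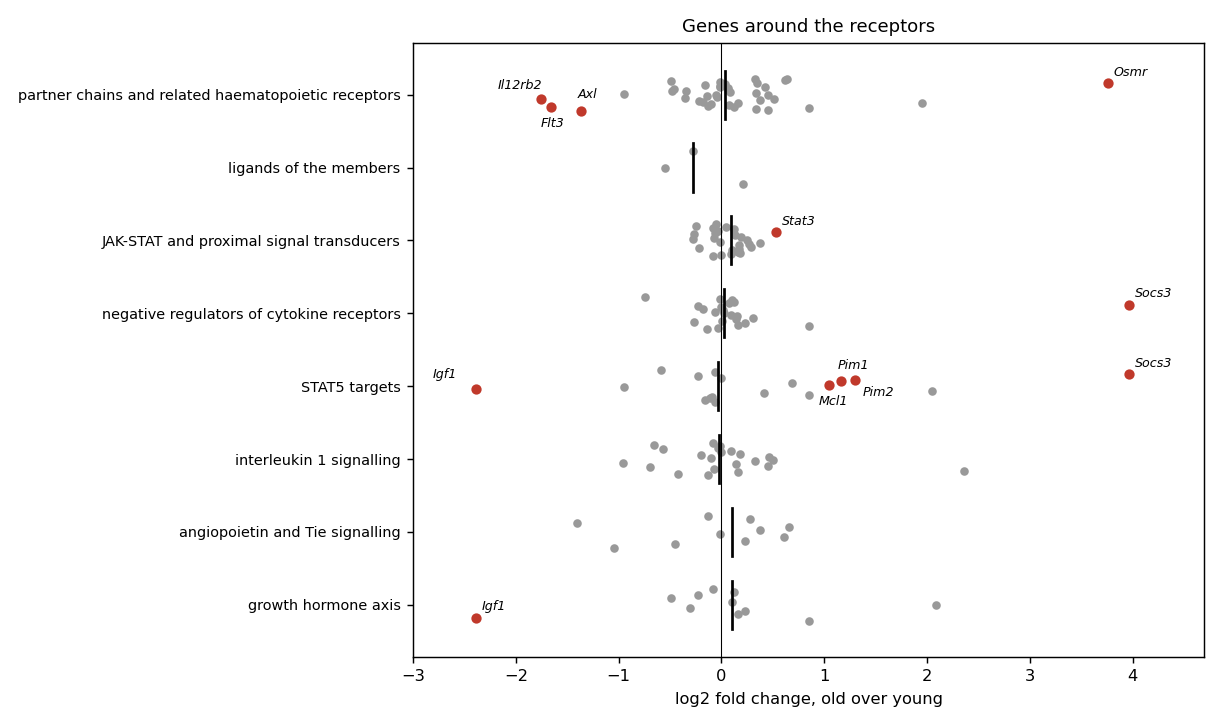
Log2 fold change, old over young, of each tested gene (points) in the 8 lists around the receptors, with genes past an adjusted p of 0.05 in red and the list median as a black line. The medians lie between −0.28 and 0.10, and the STAT5 target list holds 4 genes that rose and 1 that fell.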

How the data were processed

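RNA of sorted HSCs was purified with a kit for small samples and made into low-input libraries, per the labels' protocols. Salmon, DESeq2, FastQC, MultiQC and the build GRCm38 are named in the submitters' processing notes, with no role or version. Estimated counts, as deposited, were whole numbers for 16312 genes. The authors' comparison table gives a base mean (a normalised signal). It also gives the authors' log2 fold change with its error and a test score. Its p-value was deposited both raw and adjusted. All 570 genes called here have the opposite sign in it, so it is read as young over old, and its base mean lay within 2% of normalised counts computed here in 77.4% of genes (Csf1r 7.74% above, Il3ra 5.04% below). The title and the description of young replicate 2 carry different library numbers, and its column was matched by title.

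Identifiers were matched without version to GENCODE vM21 (GRCm38, a symbol for 16301 genes). Coordinates are GRCm38, counted from 1. edgeR 4.0.16 in R 4.3.3 kept 14288 genes (minimum count 10, minimum total 15), scaled libraries by TMM and tested the age groups with the quasi-likelihood F test, two-sided, with Benjamini-Hochberg adjustment over all genes tested. Intervals are 95%, log2 CPM used a prior count of 2, and sequences came from RefSeq (promoters) and GENCODE transcripts. DESeq2 1.42.0 and limma 3.58.1 were alternatives. The design calls the samples biological replicates. No pair of libraries looked like 1 library deposited again (chi-square per degree of freedom 21.8 to 81.0). The receptor genes and the lists were chosen with earlier results of these data known. Of each list at most the 4 genes with the smallest p are named, and others (Tie1, Kit, Csf2rb2, Pim2, Cish, Socs2, Ccnd2, Gata1, Hmgxb3 and markers) were named after their values were seen.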

Additional observations from a re-analysis of the deposited data

How the results depend on the processing

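The number of changed genes, 570, was 1146 with the DESeq2 Wald test (977 genes had no adjusted p) and 245 to 473 with 1 library left out (322, 345 and 245 without old replicates 1, 2 and 3). The number of receptor genes past the threshold was 1 in all alternatives but that without old replicate 3 (range 0 to 1 with 1 library left out). The log2 fold change of Ghr ran from 0.91 to 1.17 over 11 alternatives (highest adjusted p = 0.0677). Tek, Epor, Csf1r, Csf2ra and Csf3r kept their direction in 11 and Csf2rb in 12 alternatives, and none of them passed in any. The direction of Il1r1 reversed with library size alone (−0.030), and with 1 library left out its log2 value ran from −0.079 to 0.22, reversed without old replicate 2, young replicate 1 or young replicate 3. That of Il3ra ran from −0.53 to 0.70, with the direction reversed without old replicate 1 or young replicate 3. The cause of these reversals was not tested. The age difference in the Csf2ra to Csf2rb ratio ran from 0.73 to 1.77 and that in the Il3ra to Csf2rb ratio from 0.084 to 1.39 over 8 alternatives. Csf1r, Il3ra and Epor rest on as few as 3, 19 and 54 counts in a library, and the spread between young replicates of Csf1r and Il3ra was also wide (coefficients of variation 75.8% and 81.0%). No paired analysis was possible because the labels carry no replicate numbers shared by the age groups.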
